A study of Rattus norvegicus with 12 samples.

Results

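The matrix proteases, their inhibitors and the cross-linking enzymes of the rat heart were followed as 58 protein-coding genes among the 16898 genes of the table, of which 14902 are protein-coding. They were taken by gene symbol with no cut-off on a measured value, although the set was chosen with earlier results of these data known. They comprised 11 matrix metalloproteinases (Mmp), 4 tissue inhibitors of metalloproteinases (Timp), 15 Adam genes, 19 Adamts genes, 4 Adamts-like genes (Adamtsl) and 5 lysyl oxidases (Lox and Loxl1 to Loxl4). The study compared the m6A methylation of RNA in Sprague Dawley rat hearts at 2 postnatal ages. Of its 12 samples, 6 were antibody pull-downs, which were not analysed here, and 6 were input RNA, with 3 input libraries at each age. The newborn group is postnatal day 0, and the second group is day 7 in the sample labels but 10D in the column headers, so it is called older here. The labels give no treatment and no genotype for either group, and they do not say whether a library came from 1 heart or from several, or whether replicates came from separate animals. The p-values therefore measure the spread between these libraries, which may be technical.

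The extracellular matrix of the heart is built, cut and cross-linked by secreted and membrane-bound enzymes. Mmp enzymes cut collagens and many other matrix proteins, and Timp proteins block their active sites. Adam proteins are mostly membrane proteins, several of which release the outer part of other cell-surface proteins, whereas Adamts enzymes are secreted and cut proteoglycans such as versican, procollagens or proteins of the microfibrils. Adamts-like proteins resemble Adamts enzymes but lack the protease domain and bind to the matrix. Lysyl oxidases link collagen and elastin chains covalently and so stiffen the matrix. After birth the heart matrix passes from a soft, proteoglycan-rich fetal form to one richer in fibrillar collagen.

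Values are FPKM, that is, reads divided by the length of the gene and the size of the library, so different genes may be compared per length. Library totals ran from 13489816 to 16297533 reads. Differences were tested on log2(FPKM + 1) with limma over the 13117 genes whose mean reached 1 FPKM, and a gene was called at a Benjamini-Hochberg adjusted p under 0.05. A positive log2 fold change means a higher level in older hearts, and the added 1 FPKM makes the change of low genes look smaller than it was. The median gene stood at -0.11. Across all genes 462 were called higher and 752 lower, and after centring each library on its median the split was 617 higher and 464 lower. Day 0 replicate 3 stood apart from the other 5 libraries. Its summed level of skeletal muscle markers was 305 FPKM against 3.90 to 7.55 FPKM, and its summed level of lung markers was 48.3 FPKM against 0.641 to 3.75 FPKM. For the 58 genes, a change is therefore also given without it where that ended or made a call, turned the sign or moved the log2 fold change by over 1.5 times. Cardiomyocyte markers summed to 57728 to 67425 FPKM at day 0 and to 49785 to 58234 FPKM in older hearts, so the heart label was borne out in every library.

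Of the 58 genes, 44 passed the filter and were tested. The other 14 reached at most 1.65 FPKM in any library, and 11 of them were at 0 in at least 1 library. Among the 44, limma called Mmp2, Adamts5 and Adamtsl4 higher in older hearts and Adam33, Adamts17 and Adamtsl5 lower. This is 3 genes (6.82%) in each direction, where 3.52% of all tested genes were called higher, 5.73% lower and 9.26% either way. A called change of at least 1 on the log2 scale was seen in 4 of the 44 (Adam33, Adamts5, Adamtsl4 and Adamtsl5) and in 4.48% of all tested genes. At an unadjusted p under 0.05 the counts were 8 higher (18.2%) and 7 lower (15.9%), beside 9.48% and 16.4% of all tested genes. In 11 tested genes (25%) every older library lay above every day 0 library, against 12.2% of all tested genes, and in 8 (18.2%) every older library lay below, against 20.3%. Either pattern was seen in 32.5% of all tested genes. The median log2 fold change was 0.19, beside -0.11 over all tested genes. The other 38 tested genes were not called. Their changes are given as values, since at this spread a miss does not show that a level was equal at both ages. In the authors' deposited table, 9 of the 58 genes have an adjusted p under 0.05 and a positive fold change and 4 a negative one, beside 6.26% and 5.53% of all its genes.

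The call of Adam33 was kept in all 6 fits that each left out 1 library. The calls of Adamts5 and Adamts17 held in 0 of the 6, and those of Mmp2, Adamtsl4 and Adamtsl5 in 1 each. In those fits the 6 genes kept the sign of their change. Without day 0 replicate 3, limma called 484 of the 13117 tested genes higher and 646 lower. Among the 44 genes it called 6, of which Mmp2 and Adam33 were shared with the fit to all libraries. The others were Adamts1 and Adamts2 (higher) and Adam19 and Adamts9 (lower). That replicate was above both other day 0 libraries in 17 of the 44 genes, below both in 17 and between them in 10.

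**Figure D1:**
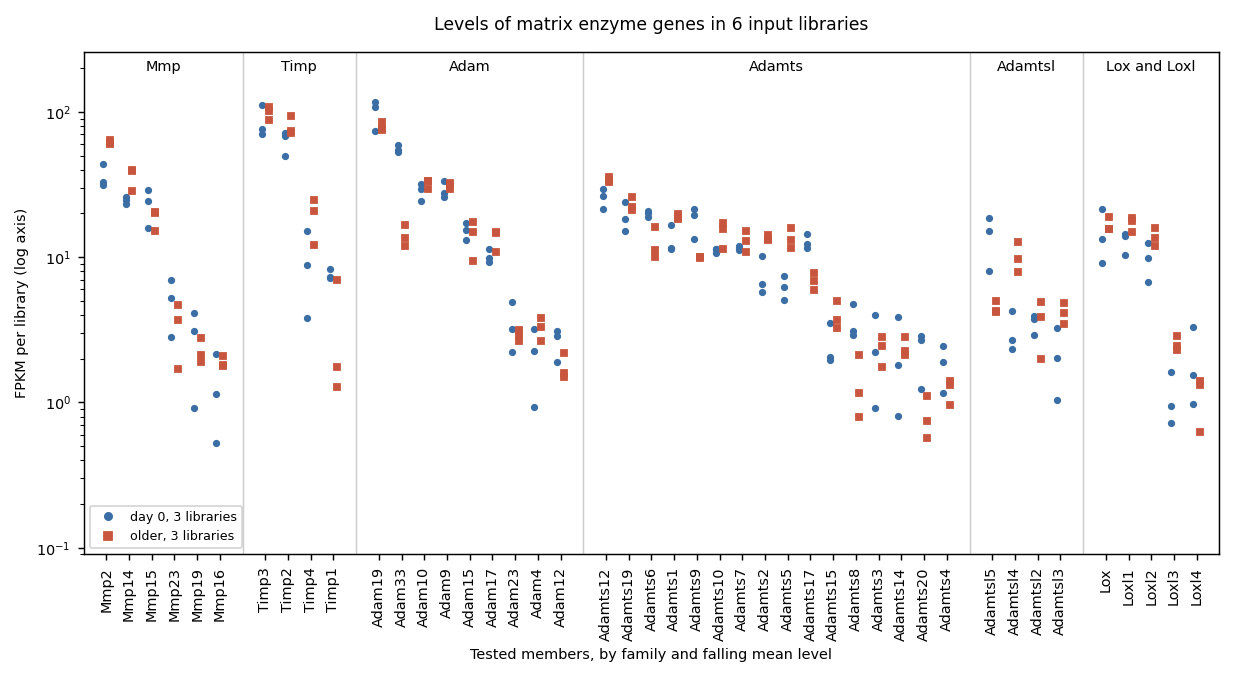
Level of each of the 44 tested genes in each of the 6 input libraries (vertical axis, FPKM, log scale), with genes along the horizontal axis by family and falling mean level, circles for day 0 and squares for older libraries. The circles and squares of most genes lie close together or overlap, while those of Adam33 are well apart, with 52.9 to 59.0 FPKM at day 0 and 11.9 to 16.7 FPKM in older hearts.

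Among the matrix metalloproteinases Mmp2 was the most abundant and the 1 gene of the 6 tested that was called. Mmp2 encodes gelatinase A, which cuts denatured collagen and basement membrane collagen and is made largely by fibroblasts. It was measured at 32.7, 31.2 and 44.0 FPKM in the day 0 libraries and at 60.0, 61.2 and 63.6 FPKM in the older libraries. The ages did not overlap, and the highest day 0 value was that of replicate 3. Mmp2 rose from 36.0 ± 7.03 to 61.6 ± 1.79 FPKM (mean ± SD of 3 libraries), a log2 fold change of 0.78 (SE 0.15) at a limma adjusted p of 0.0210, or 1.71-fold in mean FPKM. Leaving out day 0 replicate 3 gave a change of 0.93 (limma adjusted p = 0.00761), and leaving out older replicate 3 gave an adjusted p of 0.0847. It was 0.0672 without the mean-variance trend. Mmp2 took on average 38.0% of the summed Mmp level at day 0 and 49.6% in older hearts. By library its share was 35.1%, 31.3% and 47.6% at day 0 and 52.0%, 46.8% and 50.1% in older hearts. The share thus overlapped between the ages. Fibroblast markers moved with it. Of the 10 in the list, 8 were called higher. The other 2 had negative log2 fold changes, 1 of them with every older library below every day 0 library. The summed level of the 10 was 490 to 700 FPKM at day 0 and 1008 to 1154 FPKM in older hearts. Endothelial markers summed to 273 to 315 FPKM at day 0 and to 371 to 405 FPKM in older hearts. Of the 9 tested, 2 were called higher. The part of either cell type in the Mmp2 result was not tested. In whole tissue, a change in the number of cells of a type and a change in RNA per cell cannot be told apart.

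Mmp14 encodes membrane-type 1 matrix metalloproteinase, which cuts fibrillar collagen at the cell surface and activates the Mmp2 proenzyme together with Timp2. Its levels were 26.0, 24.6 and 23.3 FPKM at day 0 and 28.7, 39.8 and 39.2 FPKM in older hearts. No library of one age overlapped the other, but the lowest older library lay close to the day 0 values. Mmp14 had a log2 fold change of 0.51 (limma adjusted p = 0.0880), whereas the authors' deposited table gives an adjusted p of 0.00541. Mmp15, a second membrane-type enzyme, stood at 24.4, 28.8 and 15.8 FPKM and at 20.5, 20.1 and 15.02 FPKM, so its ages overlapped (log2 fold change -0.27, limma adjusted p = 0.525, and -0.51 at 0.147 without day 0 replicate 3). The small transmembrane enzyme gene Mmp23 was read at 5.25, 6.92 and 2.83 FPKM and then at 1.69, 4.67 and 3.68 FPKM (log2 fold change -0.47, limma adjusted p = 0.503, and -0.76 at 0.266 without day 0 replicate 3). Mmp19 and the membrane-type Mmp16 were below 3 FPKM on average. Their log2 fold changes were -0.08 and 0.41, and that of Mmp19 turned sign when the libraries were centred on their median. Without day 0 replicate 3 they were 0.21 and 0.68. Mmp8, the neutrophil collagenase, Mmp9, gelatinase B, and Mmp12, the macrophage elastase, did not pass the filter, nor did the membrane-type Mmp17 and Mmp24. Mmp9 was at 0 in all libraries except day 0 replicate 2, which held 0.424 FPKM. The summed Mmp level was 95.04 ± 3.999 FPKM at day 0 and 124 ± 8.01 FPKM in older hearts (SD, n = 3).

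Timp3 and Timp2 were among the most abundant of the 58 genes, and Timp4 and Timp1 were not. Limma called 0 of the 4, where 9.26% of all tested genes were called. At an unadjusted p under 0.05, 1 was higher and 1 lower, beside 9.48% and 16.4% of all tested genes. The same model on the recovered reads (limma's voom), which called 14.0% of all tested genes, also called 0. Timp3, whose product binds to the matrix and inhibits Adam17 and several Adamts enzymes as well as Mmp enzymes, had the highest mean over the 6 libraries of all 58 genes. Its levels were 76.7, 70.9 and 112 FPKM at day 0 and 101, 109 and 87.6 FPKM in older hearts. The ages overlapped, because day 0 replicate 3 was the highest of all 6 libraries. Timp3 had a log2 fold change of 0.22, with a 95% interval of -0.21 to 0.65 (limma adjusted p = 0.5005), and without that library the change was 0.42 (limma adjusted p = 0.0915). Timp2 followed with 68.1, 49.9 and 71.4 FPKM and with 73.6, 93.1 and 71.0 FPKM. Its ages overlapped as well, with a log2 fold change of 0.33 and a 95% interval of -0.07 to 0.73 (limma adjusted p = 0.277).

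Timp4, the inhibitor known for its high level in heart, was at 15.2, 8.89 and 3.82 FPKM at day 0 and at 12.1, 24.7 and 20.7 FPKM in older hearts. The lowest older library lay below the highest day 0 library. Timp4 had a log2 fold change of 1.08 (limma adjusted p = 0.184), and the authors' deposited table gives an adjusted p of 0.0480. Without day 0 replicate 3, its lowest library, the change was 0.62 (limma adjusted p = 0.326). Timp1, the inhibitor that is induced in injury and inflammation, was at 7.31, 8.31 and 7.21 FPKM at day 0 and at 1.28, 1.76 and 6.92 FPKM in older hearts. Every older library lay below every day 0 library, yet older replicate 3 lay just beneath them. The log2 fold change of Timp1 was -1.22, with a 95% interval of -2.30 to -0.14 (limma adjusted p = 0.147), and Timp1 was called lower once older replicate 3 was left out. The summed Mmp level over the summed Timp level was 0.556, 0.722 and 0.476 at day 0 and 0.614, 0.573 and 0.682 in older hearts, so this ratio overlapped between the ages.

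Adam33 had the lowest adjusted p of the 58 genes. This membrane-anchored metalloproteinase is known in human tissue from smooth muscle cells and fibroblasts and as a susceptibility gene for asthma. Adam33 was at 54.8, 59.0 and 52.9 FPKM in the day 0 libraries and at 16.7, 11.9 and 13.6 FPKM in the older libraries. The replicates of each age lay close together, with a wide gap between the ages, and day 0 replicate 3 did not stand apart. Adam33 fell from 55.5 ± 3.14 to 14.1 ± 2.41 FPKM (SD, n = 3), which is 3.95-fold. On the log2 scale the change was -1.92 (SE 0.15, 95% interval -2.27 to -1.57, limma adjusted p = 0.000961). In the authors' deposited table the log2 fold change of Adam33 is -1.86 with an adjusted p of 7.49e-23. Between 1903 and 2060 reads lay behind each day 0 value and between 458 and 632 reads behind each older value. Over the 6 fits without 1 library the highest adjusted p was 0.0132, without day 0 replicate 2. Adam33 made up 22.5% of the summed Adam level at day 0 and 7.30% in older hearts. Markers of smooth muscle cells and pericytes summed to 371 to 432 FPKM at day 0 and to 376 to 400 FPKM in older hearts. Of the 10, 1 was called higher and 2 lower. Their log2 fold changes were positive in 5 and negative in 5, from -2.91 to 1.85. The sum thus does not show whether smooth muscle cells or pericytes changed in number. Fibroblast marker sums are given above for Mmp2. The part of either cell type in the Adam33 result was not tested.

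The other 8 Adam genes tested were not called. Adam19, known as meltrin beta and needed for heart valves and septa in the mouse, was the most abundant. It was at 108, 116 and 74.0 FPKM at day 0 and at 76.0, 74.4 and 85.1 FPKM in older hearts. Day 0 replicate 3 lay just below the older libraries, whereas the other day 0 libraries lay above all of them. The log2 fold change of Adam19 was -0.31 (limma adjusted p = 0.309) with all libraries and -0.51 (limma adjusted p = 0.0367) without day 0 replicate 3. Adam10, which releases the outer part of Notch and other receptors, was at 28.7 ± 3.83 and 32.3 ± 2.46 FPKM (mean ± SD of 3 libraries), a log2 fold change of 0.17 at a limma adjusted p of 0.499, and of 0.066 without day 0 replicate 3. Adam9, a further membrane protease, was at 29.0 ± 3.93 and 31.0 ± 1.55 FPKM (mean ± SD of 3 libraries), a log2 fold change of 0.10 at a limma adjusted p of 0.703. Adam17, the enzyme that releases tumour necrosis factor, was at 10.1 ± 1.08 and 13.4 ± 2.23 FPKM (mean ± SD of 3 libraries), a log2 fold change of 0.37 at a limma adjusted p of 0.259. Adam15, Adam23, Adam4 and Adam12 had log2 fold changes of -0.15, -0.15, 0.51 and -0.38, and without day 0 replicate 3 Adam23 turned to 0.075 and Adam4 came to 0.20. The summed Adam level was 249 ± 30.0 FPKM at day 0 and 193 ± 5.87 FPKM in older hearts (SD, n = 3). Adam8, Adam11, Adam22, Adam30, Adam32 and Adam6 did not pass the filter.

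**Figure D2:**
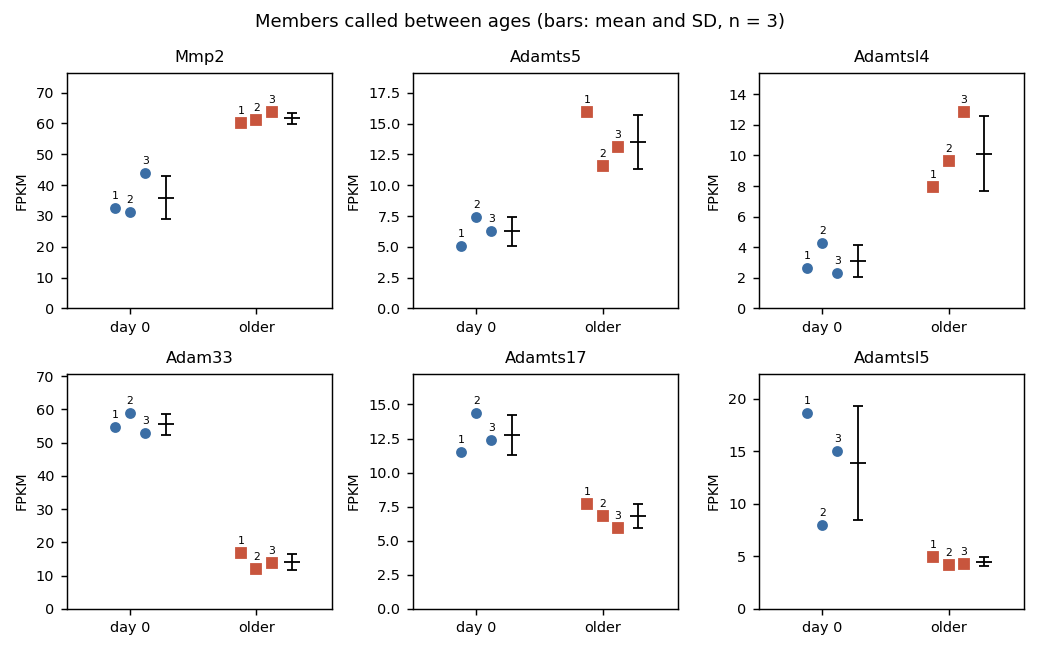
FPKM of the 6 called genes (1 panel per gene, linear axis from 0) at both ages, with each point a library numbered by its replicate and the bar at the mean ± SD of 3 libraries. The ages overlap in none of the 6 panels, and Adamtsl5 shows the widest day 0 spread relative to its mean, from 7.97 to 18.7 FPKM.

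Of the 19 Adamts genes 16 were tested. Limma called Adamts5 higher and Adamts17 lower, beside 3.52% higher and 5.73% lower among all tested genes. The ages did not overlap in 10 of the 16, with 5 in each direction. Among all tested genes, older libraries lay above without overlap in 12.2% and below in 20.3%. The summed level of the family was 160 ± 7.65 FPKM at day 0 and 174 ± 9.28 FPKM in older hearts (SD, n = 3). The enzymes that cut versican and related proteoglycans, the hyalectanases, form its largest group, with 7 genes. Adamts5, which cuts aggrecan and versican and is needed to shape heart valves in the mouse, was at 5.08, 7.44 and 6.27 FPKM at day 0 and at 15.9, 11.6 and 13.1 FPKM in older hearts. All older libraries lay above all day 0 libraries. Adamts5 rose from 6.26 ± 1.18 to 13.5 ± 2.20 FPKM (mean ± SD of 3 libraries), a log2 fold change of 1.003 (SE 0.21) at a limma adjusted p of 0.0275, or 2.16-fold. The adjusted p of Adamts5 was 0.108 without older replicate 1 and 0.0547 without day 0 replicate 3. The fibroblast and endothelial marker sums given for Mmp2 moved with Adamts5 and with Adamtsl4, described further on. The part of these cell types in either result was not tested.

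Adamts9, a versican-cutting enzyme with roles in the developing mouse heart, was not called with all libraries. It was at 21.5, 19.4 and 13.3 FPKM at day 0 and at 10.01, 9.94 and 9.95 FPKM in older hearts. The older libraries lay close together and below all day 0 libraries, of which replicate 3 was the nearest. The change of Adamts9 on the log2 scale was -0.77 (limma adjusted p = 0.0569), and it was -0.97 (limma adjusted p = 0.0186) without day 0 replicate 3. The ratio of Adamts5 to Adamts9 was 0.236, 0.383 and 0.473 at day 0 and 1.59, 1.16 and 1.32 in older hearts. The more abundant of the pair was thus Adamts9 in every day 0 library and Adamts5 in every older library. This pair was chosen after its values were seen, so the ratio is a description and no test was made of it.

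Adamts1, a further proteoglycan-cutting enzyme, was at 11.6, 11.4 and 16.7 FPKM and at 19.9, 18.4 and 18.7 FPKM. Its ages did not overlap, with a log2 fold change of 0.51 (limma adjusted p = 0.129) and, without day 0 replicate 3, of 0.68 (limma adjusted p = 0.0353). Adamts8 was lower in every older library, at 2.90, 4.73 and 3.09 FPKM against 0.792, 2.12 and 1.17 FPKM (log2 fold change -0.97, limma adjusted p = 0.139). Adamts20 was also lower in every older library, with means of 2.26 ± 0.890 and 0.806 ± 0.270 FPKM (mean ± SD of 3 libraries), a log2 fold change of -0.82 at a limma adjusted p of 0.246. Adamts15 and Adamts4 completed the hyalectanases with log2 fold changes of 0.51 and -0.33, neither called. Summed over these 7 genes the level was 47.8 ± 2.39 FPKM at day 0 and 49.9 ± 1.80 FPKM in older hearts (SD, n = 3), a difference close to the spread between libraries.

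Adamts17, a secreted enzyme whose loss in humans gives a Weill-Marchesani-like syndrome, was the called gene on the lower side. It was at 11.5, 14.4 and 12.4 FPKM at day 0 and at 7.72, 6.83 and 5.96 FPKM in older hearts. The ages were separate, and replicate 3 of day 0 lay between its companions. Adamts17 fell from 12.8 ± 1.48 to 6.84 ± 0.882 FPKM (mean ± SD of 3 libraries), a log2 fold change of -0.81 (SE 0.18) at a limma adjusted p of 0.0367, or 1.87-fold. The adjusted p was 0.124 without older replicate 3 and 0.0615 without day 0 replicate 3, and 0.0607 with each library centred on its median.

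Adamts6 and Adamts10 encode closely related enzymes that act on fibrillin microfibrils and cell adhesion, and loss of Adamts6 disturbs heart formation in the mouse. Adamts6 was at 20.9, 20.0 and 18.8 FPKM at day 0 and at 16.1, 11.3 and 10.1 FPKM in older hearts (log2 fold change -0.66, limma adjusted p = 0.0776). Adamts10 was at 11.3, 11.4 and 10.6 FPKM and at 17.2, 11.4 and 15.7 FPKM (log2 fold change 0.36, limma adjusted p = 0.270). Older replicate 2 of Adamts10 lay just above the highest day 0 library. The ratio of Adamts10 to Adamts6 was 0.543, 0.569 and 0.565 at day 0 and 1.07, 1.01 and 1.56 in older hearts, again a pair picked after its values were seen.

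The procollagen N-propeptidases, which trim the amino-terminal propeptide from fibrillar procollagens, were led by Adamts2. It was at 5.73, 6.504 and 10.1 FPKM at day 0 and at 13.2, 13.4 and 14.2 FPKM in older hearts. All older libraries lay above all day 0 libraries, and day 0 replicate 3 was the nearest to them. The log2 fold change of Adamts2 was 0.82 (limma adjusted p = 0.0635), and without day 0 replicate 3 it was 1.04 (limma adjusted p = 0.0210), while the authors' deposited table gives an adjusted p of 0.000302. Adamts3 and Adamts14 were near 2 FPKM, with log2 fold changes of 0.07 and 0.21, which became -0.29 and 0.58 without day 0 replicate 3. The summed level of the 3 genes was 12.01 ± 2.63 FPKM at day 0 and 18.3 ± 0.310 FPKM in older hearts (SD, n = 3).

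Adamts12 was the most abundant Adamts gene. It encodes an enzyme that, like Adamts7, cuts cartilage oligomeric matrix protein, and it was at 26.3, 21.4 and 29.4 FPKM at day 0 and at 33.9, 32.8 and 35.4 FPKM in older hearts. The ages did not overlap, yet the log2 fold change of Adamts12 was 0.40 with a limma adjusted p of 0.133, where the authors' deposited table gives 0.00184. Adamts19, a gene tied to heart valve disease in humans, was at 18.3, 15.1 and 24.0 FPKM and at 22.3, 21.2 and 26.0 FPKM, with overlap (log2 fold change 0.28, limma adjusted p = 0.402, and 0.45 at 0.135 without day 0 replicate 3). Adamts7 had a log2 fold change of 0.14. Adamts16, Adamts18 and Adamts13, the last of which cuts von Willebrand factor in blood, did not pass the filter.

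**Figure D3:**
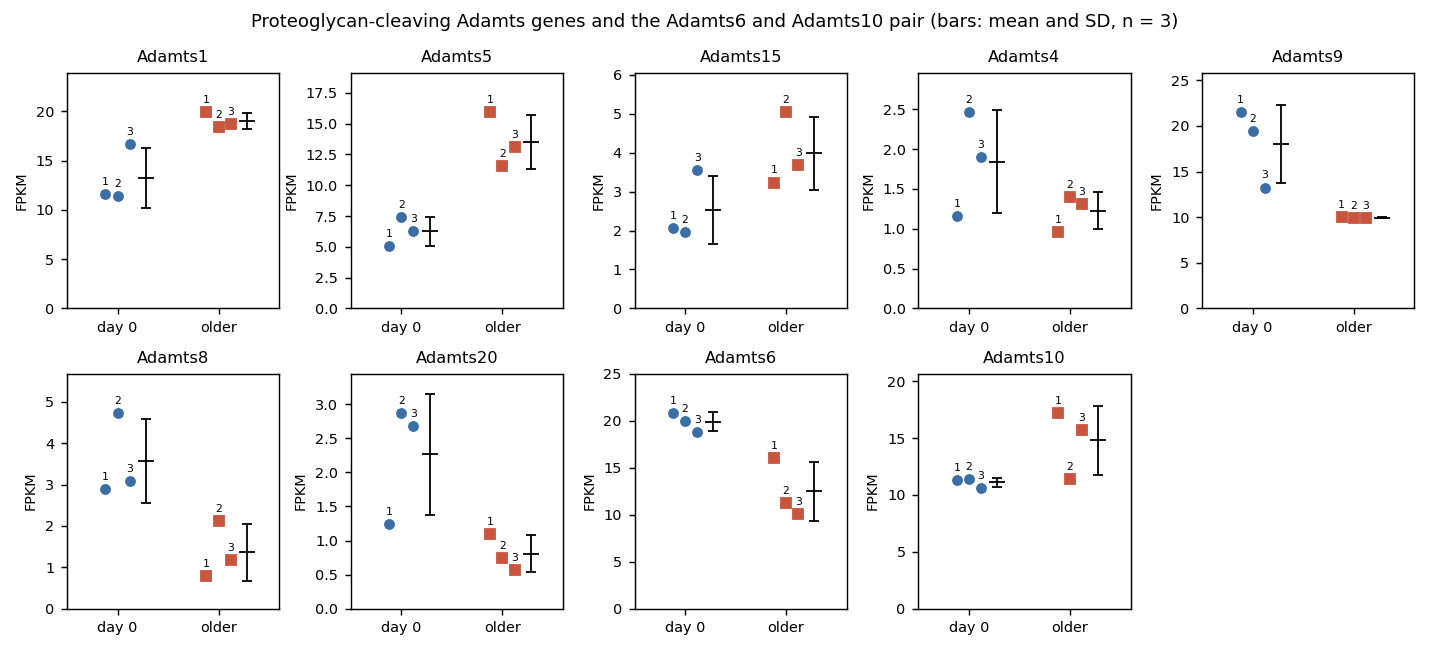
FPKM (linear axis from 0) of the 7 proteoglycan-cutting Adamts genes and of Adamts6 and Adamts10 in each library, 1 panel per gene, with points numbered by replicate and the bar at the mean ± SD of 3 libraries per age. Every older library of Adamts1, Adamts5 and Adamts10 lies above the day 0 libraries, those of Adamts9, Adamts8, Adamts20 and Adamts6 lie below, and the ages overlap for Adamts15 and Adamts4.

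Of the 4 Adamts-like genes, limma called Adamtsl4 higher and Adamtsl5 lower, beside 3.52% higher and 5.73% lower among all tested genes. Promoter sequence is shown for this pair because both were called, in opposite directions, within a small family. The sequences are from RefSeq, assembly GRCr8, and span 250 bases before to 50 bases after the annotated start, 5′ to 3′ on the gene's strand. Adamtsl4 lies at chr2:185935747-185936046 on the minus strand and Adamtsl5 at chr7:10013705-10014004 on the plus strand. Capitals mark GGGCGG, the GC box read by Sp1 and related factors, searched on both strands.
Adamtsl4: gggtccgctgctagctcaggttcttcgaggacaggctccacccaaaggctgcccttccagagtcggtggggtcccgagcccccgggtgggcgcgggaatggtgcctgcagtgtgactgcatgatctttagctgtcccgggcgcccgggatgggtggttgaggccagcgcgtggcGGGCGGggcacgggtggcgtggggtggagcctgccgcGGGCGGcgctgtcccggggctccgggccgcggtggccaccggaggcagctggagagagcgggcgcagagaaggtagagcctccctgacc
Adamtsl5: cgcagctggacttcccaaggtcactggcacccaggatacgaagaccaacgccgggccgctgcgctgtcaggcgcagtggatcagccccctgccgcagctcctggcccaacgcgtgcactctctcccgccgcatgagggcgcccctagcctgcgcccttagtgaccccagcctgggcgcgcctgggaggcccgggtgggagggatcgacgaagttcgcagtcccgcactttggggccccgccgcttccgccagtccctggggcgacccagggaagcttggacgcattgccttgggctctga
The Adamtsl4 window held 2 GGGCGG matches and the Adamtsl5 window none, although GC content was 72.3% and 70.0%. A GC box was present in 43.1% of 19005 protein-coding promoters of the same length and in 24 (61.5%) of the 39 members of the 58 that matched the promoter table by symbol. The AP-1 motif TGANTCA, often named in studies of Mmp promoters, was present in 2 of the 39 (5.13%) and in 6.65% of all promoters. A GGGCGG match can share bases with another GGGCGG match but not with a TGANTCA match, and a match describes the sequence and is no measured binding site.

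Adamtsl4 encodes a secreted glycoprotein that binds fibrillin-1 and whose loss in humans displaces the lens. It was at 2.67, 4.29 and 2.34 FPKM at day 0 and at 7.93, 9.64 and 12.8 FPKM in older hearts. Every older library lay well above every day 0 library. Adamtsl4 rose from 3.10 ± 1.04 to 10.1 ± 2.48 FPKM (mean ± SD of 3 libraries), a log2 fold change of 1.45 (SE 0.28) at a limma adjusted p of 0.0209, or 3.27-fold. Without older replicate 3 the adjusted p was 0.0965, and without day 0 replicate 3 it was 0.0503. Adamtsl5, whose product also associates with fibrillin microfibrils, was at 18.7, 7.97 and 15.1 FPKM at day 0 and at 4.98, 4.20 and 4.24 FPKM in older hearts. The day 0 libraries were spread widely, and day 0 replicate 2 was the nearest to the older libraries. Adamtsl5 fell from 13.9 ± 5.45 to 4.47 ± 0.438 FPKM (mean ± SD of 3 libraries), a log2 fold change of -1.37 (SE 0.30) at a limma adjusted p of 0.0345, or 3.11-fold. Without older replicate 2 the adjusted p was 0.122, without day 0 replicate 3 it was 0.0894, and with centred libraries it was 0.0508.

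The summed Adamts-like level was 22.6 ± 4.36 FPKM at day 0 and 22.3 ± 0.654 FPKM in older hearts (SD, n = 3), while its make-up differed. Adamtsl4 took 14.5% of it at day 0 and 45.2% in older hearts, and Adamtsl5 took 59.8% and then 20.1%. Adamtsl3 was at 2.03, 3.26 and 1.04 FPKM and at 4.84, 4.14 and 3.49 FPKM, without overlap (log2 fold change 0.78, limma adjusted p = 0.208, and 0.51 at 0.307 without day 0 replicate 3). Adamtsl2, which in humans is mutated in geleophysic dysplasia, had a log2 fold change of -0.03 (limma adjusted p = 0.966), with means of 3.52 ± 0.537 and 3.58 ± 1.47 FPKM (SD, n = 3), so the log scale and the means differ in sign. Without day 0 replicate 3 its change was 0.034.

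Limma called 0 of the 5 lysyl oxidases, where 9.26% of all tested genes were called. At an unadjusted p under 0.05 it was 0 as well, beside 9.48% higher and 16.4% lower among all tested genes. Voom on the recovered reads, which called 14.0% of all tested genes, also called 0. With 5 genes, 0 calls do not show that the levels were equal at both ages. Lox, the founding member, was at 13.3, 9.07 and 21.6 FPKM at day 0 and at 15.7, 15.6 and 18.9 FPKM in older hearts. Day 0 replicate 3 was the highest of all libraries and day 0 replicate 2 the lowest, so the older range lay inside the day 0 range. The log2 fold change of Lox was 0.25, with a 95% interval of -0.42 to 0.93 (limma adjusted p = 0.625), and without day 0 replicate 3 it was 0.56 (limma adjusted p = 0.153). Loxl1, which maintains elastic fibres, was at 13.9, 10.4 and 14.4 FPKM and at 18.7, 17.6 and 14.9 FPKM. Its older libraries all lay above the day 0 libraries, by a small margin at older replicate 3 (log2 fold change 0.39, limma adjusted p = 0.229). Loxl2, which cross-links basement membrane collagen, was at 9.87, 6.78 and 12.4 FPKM and at 11.8, 15.9 and 13.5 FPKM, with overlap (log2 fold change 0.49, limma adjusted p = 0.244).

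The remaining lysyl oxidases were low. Loxl3 was at 0.727, 1.62 and 0.940 FPKM at day 0 and at 2.31, 2.45 and 2.85 FPKM in older hearts, without overlap (log2 fold change 0.77, limma adjusted p = 0.213). Loxl4 was at 0.973, 3.29 and 1.54 FPKM and at 1.41, 1.33 and 0.631 FPKM (log2 fold change -0.41, limma adjusted p = 0.602). The summed level of the 5 genes was 40.3 ± 9.95 FPKM at day 0 and 51.2 ± 1.54 FPKM in older hearts (SD, n = 3).

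**Figure D4:**
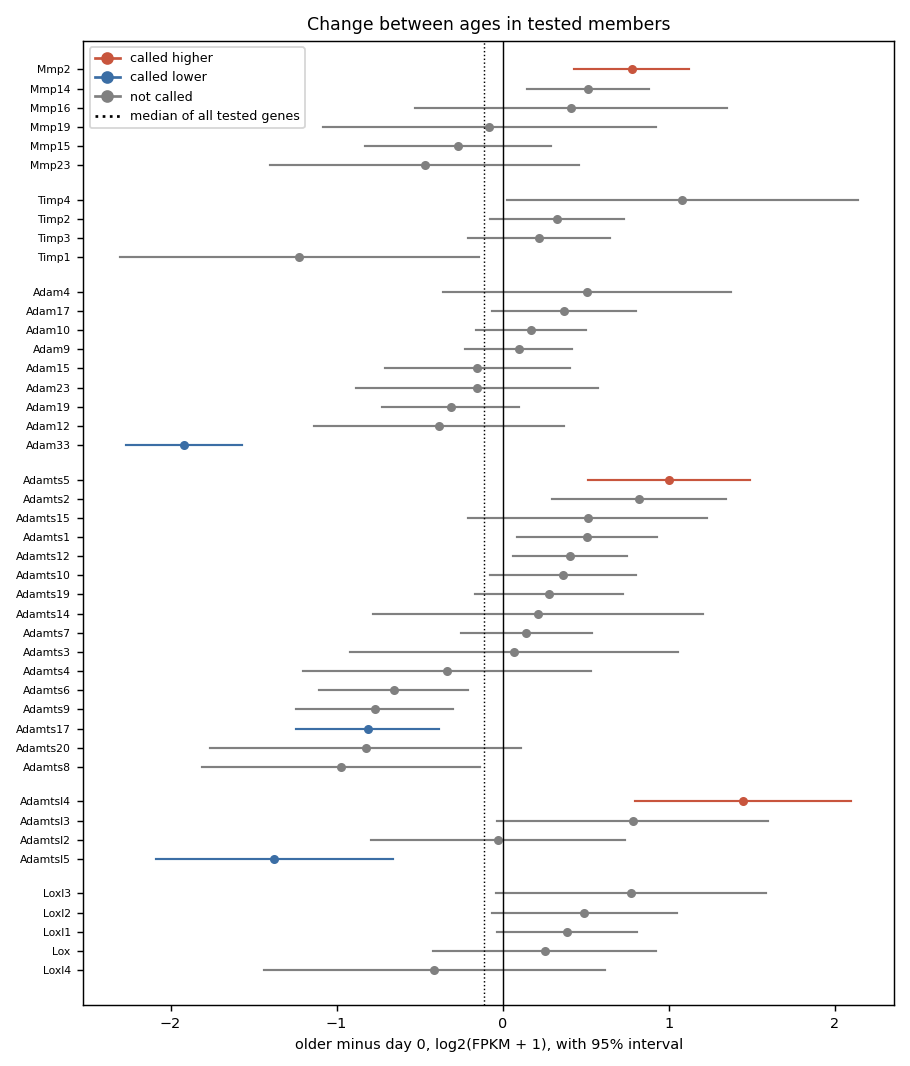
Change of each gene on the log2 scale (horizontal axis, older minus day 0 of log2(FPKM + 1)) for the 44 tested genes by family, with the 95% interval from limma as a bar, genes called higher in red, genes called lower in blue and others in grey. The 6 called genes run from -1.92 for Adam33 to 1.45 for Adamtsl4, and the dotted line marks the median of all tested genes at -0.11.

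Genes that act with these enzymes were read from a list of 78 symbols holding their activators, partners, substrates and other matrix proteases and cross-linkers, of which 73 were in the table and 65 were tested. The list was chosen with earlier results of these data known, so its shares are a description and no test of the list was made. Limma called 11 of them higher (16.9%) and 4 lower (6.15%), beside 3.52% and 5.73% of all tested genes. At an unadjusted p under 0.05 the counts were 20 (30.8%) and 8 (12.3%), beside 9.48% and 16.4%. Their median log2 fold change was 0.25, beside -0.11 over all tested genes. Of the 4 proprotein convertases in the list, which activate such enzymes, Pcsk6 and Furin were called and Pcsk7 (log2 fold change 0.36, limma adjusted p = 0.309) and Pcsk5 (-0.10, limma adjusted p = 0.902) were not. Pcsk6 rose from 9.42 ± 1.48 to 27.0 ± 4.06 FPKM (mean ± SD of 3 libraries), a log2 fold change of 1.42 at a limma adjusted p of 0.00552. Furin, which removes the propeptide of Mmp14 and of Adam and Adamts enzymes, rose from 23.4 ± 1.44 to 37.2 ± 2.23 FPKM (mean ± SD of 3 libraries), a log2 fold change of 0.65 at a limma adjusted p of 0.0195, a call that held in 1 of the 6 fits without a library.

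Fap and Htra3, serine proteases that act outside the cell, rose as well. Fap, a protease of activated fibroblasts, went from 6.07 ± 1.01 to 18.8 ± 3.41 FPKM (mean ± SD of 3 libraries), a log2 fold change of 1.48 at a limma adjusted p of 0.00683. Htra3 went from 14.3 ± 2.54 to 40.7 ± 6.07 FPKM (mean ± SD of 3 libraries), a log2 fold change of 1.45 at a limma adjusted p of 0.00483. The substrate gene Col3a1, a fibrillar collagen, rose from 338 ± 70.1 to 903 ± 59.1 FPKM (mean ± SD of 3 libraries), a log2 fold change of 1.43 at a limma adjusted p of 0.00258. Thbs2, a matricellular protein that aids the clearance of Mmp2 in mouse cells, rose from 7.33 ± 0.959 to 20.6 ± 1.31 FPKM (mean ± SD of 3 libraries), a log2 fold change of 1.38 at a limma adjusted p of 0.00412. The other genes called higher were Ctsl, Sparc, Tspan14, Col1a1 and Fbn1. Of the 6 fits without a library, the call of Sparc held in all 6. Those of Ctsl, Col1a1 and Fbn1 held in 1 each, and that of Tspan14 in 0. Col1a1 is also 1 of the 10 fibroblast markers, whose summed level did not overlap between the ages, and the part of fibroblasts in these calls was not tested.

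Transglutaminases are a second family of cross-linking enzymes, some of which act on matrix proteins. Tgm2, the tissue transglutaminase, fell from 202 ± 5.10 to 67.0 ± 4.05 FPKM (mean ± SD of 3 libraries), a log2 fold change of -1.58 at a limma adjusted p of 0.000338, and its call held in all 6 fits without a library. Tgm1 was at 3.89, 8.23 and 7.18 FPKM at day 0 and at 0, 0 and 0.315 FPKM in older hearts (log2 fold change -2.71, limma adjusted p = 0.00761). Vcan and Fbn2, a proteoglycan and a microfibril protein cut or bound by Adamts family proteins, were the other genes called lower. Leaving out 1 library at a time gave 6 to 14 genes of this list called higher, 14 of them without day 0 replicate 3. It gave 4 called lower each time. Over all tested genes those fits called 145 to 484 higher and 218 to 646 lower. Over all 58 enzymes and inhibitors together the summed level was 734 ± 16.5 FPKM at day 0 and 765 ± 20.7 FPKM in older hearts (SD, n = 3).

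**Figure D5:**
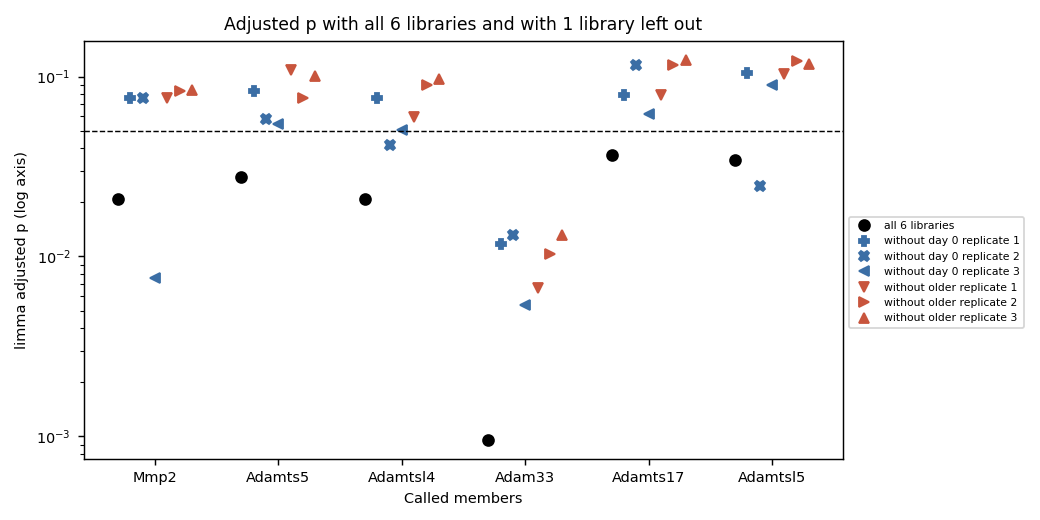
Limma adjusted p (vertical axis, log scale) of the 6 called genes with all 6 libraries (black) and in each fit that left out 1 library (coloured symbols), with a dashed line at 0.05. Adam33 is under the line in every fit, with 0.0132 as its highest value, whereas Adamts5 and Adamts17 are above it in each fit without a library.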

How the data were processed

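Input RNA of 6 rat heart libraries was analysed, 3 per age. Per the labels' protocols, libraries were depleted of ribosomal RNA and amplified by PCR after SMART cDNA synthesis. HISAT2, HOMER 4.10 and rn5 are named in the submitters' processing notes, with no role. Which counter, annotation, strand setting and test the authors used is not given in the sources used here. The values deposited by the authors are FPKM per gene and library, and the same deposited table holds their log2 fold changes and p-values, raw and adjusted. Within each gene the deposited FPKM were whole multiples of 1 read (100% of 16898 genes, relative tolerance 2e-13), which gave the library totals, of which 99.51% to 99.61% fell in listed genes. Read numbers cover counting error only, as PCR copies are not independent molecules.

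FPKM are not counts, so log2(FPKM + 1) was fitted with limma 3.58.1 in R 4.3.3 (lmFit, eBayes with trend, mean of at least 1 FPKM, Benjamini-Hochberg over 13117 genes, threshold 0.05). The planned tests of counts were therefore not made on the deposited values, and they were not made on the recovered reads either. Limma's voom on the recovered reads was added after seeing the data. On simulated reads of 12994 genes for this comparison, 49.5% of genes with a 2-fold change and 98.9% with a 4-fold change were called. The simulation gave every gene the same spread beyond counting error, changed few genes and held no library that stood apart. These shares may therefore not hold for the real libraries. The members, lists and rules were chosen with earlier results of these data known. Named were every called gene, every Timp, Lox and Loxl gene, the 4 most abundant genes of each other family, genes without overlap and at least 1 in log2 fold change, and up to 5 called pathway genes per direction. Other genes were named after their values were seen, to account for every member. The labels do not pair the libraries by replicate number. Deviations of same-numbered libraries from their age means correlated at -0.036, -0.003 and -0.050. Such values cannot exclude a pairing, as each mean holds 3 libraries and day 0 replicate 3 stood apart. Alternatives were other pseudocounts, filters and scalings, a fit without the trend, a replicate block and leaving out each library.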

Additional observations from a re-analysis of the deposited data

How the results depend on the processing

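Against 462 genes called higher and 752 lower over all genes, no mean-variance trend gave 299 and 370, the replicate block 217 and 284, and voom on the recovered reads 725 and 1106. Centring lowered the lower count to 464 and quantile normalization to 479, and leaving out 1 library gave 145 to 484 higher and 218 to 646 lower. Among the matrix enzymes the 3 higher calls became 0 with the replicate block, where 7 were higher at an unadjusted p under 0.05 in limma, and 6 with voom. The 3 lower calls became 1 without a filter, with centring, with quantile normalization, without the trend and with the replicate block. Without 1 library 0 to 3 were higher and 1 to 3 lower. Adam33 was called in each of these fits. Pseudocounts of 0.1 and 0.5 left the same 6 genes called, and a filter at a mean of 5 FPKM added 2. The log2 fold change of Lox turned to -0.024 without day 0 replicate 2 and ran up to 0.56 in the other fits without a library. That of Adamtsl2 turned to 0.091 with centring and to 0.036 with quantile normalization, and ran from -0.24 to 0.25 in the fits without a library. The cause of these shifts was not tested, except that fits without a library hold fewer samples. The labels do not pair the libraries by replicate number, and a pairing was not excluded. Under the block only Adam33 kept its call. The log2 fold changes of the genes that lost it were unchanged. Their limma adjusted p became 0.0514 (Mmp2), 0.0879 (Adamts5), 0.0965 (Adamts17), 0.0619 (Adamtsl4) and 0.0573 (Adamtsl5). The planned count models, edgeR's quasi-likelihood test and DESeq2, were not run on the deposited values because these are FPKM. They were not run on the recovered reads either. With 3 libraries per age, 2-fold changes were often missed in the simulated reads, and genes under 1 FPKM were not tested.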
